A study of Mus musculus with 12 samples.

Results

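Cd33 and its relatives are Siglecs, surface receptors of the immunoglobulin superfamily that bind sialic acids, the sugars at the outer ends of cell-surface glycans. Transcripts of 6 such genes (Cd33, Siglec1, Siglece, Siglecg, Siglech and Cd22) were measured in mouse bone marrow-derived macrophages, which are grown from marrow progenitors in culture. The 6 genes were found by matching the Ensembl identifiers of the deposited count table to symbols, and they make up 6 of its 37620 gene identifiers. A further 3 genes of the family, Siglecf, Mag and Siglec15, also have rows there. The macrophages were primary C57BL/6 cells at day 7. The study set low oxygen and lactate, each present or absent, against each other in 4 groups of 3 libraries: hypoxia-lactate (1% oxygen with 25 mM lactate), hypoxia-NaCl (1% oxygen with 25 mM NaCl), normoxia-lactate (25 mM lactate) and normoxia-NaCl (25 mM NaCl, the control for both treatments). NaCl was thus present wherever lactate was not. How long the cells were exposed is not given in the sources used here. The labels number the 3 libraries of a group without saying if they are different mice or cultures, so the p-values speak only of library-to-library spread, which may be technical. The genes were selected on measured values of these same 12 libraries, that is, with expression results of the series in view, and which comparison weighed most is not recorded. All values below therefore describe the genes, and the adjusted p-values of Cd33 give its place in the fit of the whole table and no independent evidence.

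Most Siglecs of the CD33-related branch carry immunoreceptor tyrosine-based inhibitory motifs (ITIMs) in their cytoplasmic tails, which recruit the phosphatases SHP-1 and SHP-2 and dampen activation when the receptor meets sialic acid on its own or a neighbouring cell. In humans CD33 is a receptor of myeloid cells of this kind, and the mouse protein differs from it in the cytoplasmic tail. Siglece is an inhibitory Siglec of mouse neutrophils and macrophages. Siglec1, also called sialoadhesin or CD169, has a long extracellular part, lacks an ITIM, serves adhesion and uptake of sialylated particles, and is induced by interferon. Cd22 and Siglecg are inhibitory receptors known mainly from B cells, and Siglech marks plasmacytoid dendritic cells, where it signals through the adaptor DAP12.

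The promoter windows of Cd33 and Siglece are shown because Cd33 carried the clearest difference of the family and Siglece lies on the same chromosome. Between these genes lie 4 annotated protein-coding genes. Each window is the 250 bases before the annotated start in RefSeq (GRCm38.p6), written 5′ to 3′ on the gene's strand, and the capitals mark GAGGAAG or its reverse complement CTTCCTC, a motif of the type bound by the myeloid factor PU.1. The deposited counts use another build, mm9, so these positions serve only to place the sequences. The Cd33 window is chr7:43533172-43533421 on the minus strand and the Siglece window is chr7:43660162-43660411 on the minus strand.
Cd33: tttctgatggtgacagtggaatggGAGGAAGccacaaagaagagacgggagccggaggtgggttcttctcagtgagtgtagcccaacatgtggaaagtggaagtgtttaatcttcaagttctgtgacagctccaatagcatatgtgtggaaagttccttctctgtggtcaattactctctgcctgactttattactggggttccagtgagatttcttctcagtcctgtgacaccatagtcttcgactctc
Siglece: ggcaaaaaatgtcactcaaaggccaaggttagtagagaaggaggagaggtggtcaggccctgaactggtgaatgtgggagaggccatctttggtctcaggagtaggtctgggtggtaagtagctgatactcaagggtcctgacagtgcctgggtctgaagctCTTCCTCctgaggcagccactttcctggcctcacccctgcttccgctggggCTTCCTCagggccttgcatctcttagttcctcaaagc
Cd33 held 1 match, beginning at position -226 from the start, and Siglece held 2, at -88 and -37. The motif was found, on either strand, in 10.6% of 32851 promoter windows of the same length. The letters ACGTG or GCGTG of the hypoxia response element (38.6% of windows), the core of the interferon-stimulated response element (2.98%), TGANTCA of the AP-1 type (6.75%) and GGGCGG of the Sp1 type (32.7%) had 0 matches in either window, searched on both strands. Siglecg, Siglech and Cd22, also on chromosome 7, are not printed. As in Siglece, their counts were low or their groups overlapped. Among their windows, that of Siglech held 3 matches to the hypoxia response element letters, of which the pair at -56 and -55 overlap, the first of 2 for Siglecg held 1 PU.1-type match, and that of Cd22 held 0 of the 5 motifs. Siglec1, on chromosome 2, had no entry among the promoters used. A match here is a run of letters and nothing more was measured at these windows.

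The libraries held 22705978 to 49885085 reads assigned to genes. Levels are given as CPM, the reads of a gene scaled to a common total of assigned reads, scaled between libraries by TMM. The listed markers of the macrophage label had reads in every library, at levels that differed widely. Lyz2, which encodes lysozyme, stood at 22900 to 39900 CPM and Csf1r, the receptor for the growth factor M-CSF, at 4390 to 10300 CPM. Adgre1 had 545 to 1050 CPM, Cd68 737 to 1940, Cd14 522 to 1940 and Itgam 911 to 2060. The rest were lower, with 6.19 to 34.0 CPM for Mertk, 2.73 to 29.2 for Fcgr1, 1.25 to 26.5 for Mrc1 and 0.297 to 1.46 for Cd163. Hypoxia-lactate 3 stood apart from the other 11 libraries. In it 11437 genes reached 10 reads, where the others had 13198 to 14767 such genes, and mitochondrial genes gave 0.486% of its reads, where the others had 2.04% to 4.75%. The median of its Spearman correlations to the remaining 11 was 0.906, where theirs lay between 0.966 and 0.987. Results that rest on hypoxia-lactate 3 are given with and without it. Among the other 11, normoxia-NaCl 1 had the fewest genes with 10 reads (13198) and the highest mitochondrial share (4.75%). It also had the lowest median correlation of these 11 (0.966), and some fits below leave out both libraries.

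Divided by the length of all annotated exons merged, Siglec1 had the highest level of the 6 genes, 2.83 ± 1.01 CPM per kilobase (mean and SD over 12 libraries). Cd22 followed with 1.39 ± 0.683, Cd33 with 1.27 ± 0.793, Siglece with 0.557 ± 0.259, Siglecg with 0.0779 ± 0.0931 and Siglech with 0.0424 ± 0.0604 CPM per kilobase. Cd22 and Cd33 could not be ordered, since Cd22 was higher in 6 of 12 libraries. With the median length of each gene's protein-coding transcripts in place of merged exons, a choice made after the levels were seen, Cd33 came first at 5.27 ± 3.28 CPM per kilobase and Siglec1 was above it in 2 of 12 libraries rather than 12 of 12. The order among these 3 therefore depends on the length used, while Siglece, Siglecg and Siglech followed, in this order, with both lengths. Siglecf, a receptor of eosinophils and alveolar macrophages, was above all 6 at 15.6 ± 8.38 CPM per kilobase of merged exons.

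Cd33 was lowest with low oxygen and lactate together and highest with neither. Its level was 3.99, 3.30 and 2.91 CPM in the hypoxia-lactate libraries, 11.1, 9.38 and 11.4 CPM in the hypoxia-NaCl libraries, 7.76, 5.39 and 6.89 CPM in the normoxia-lactate libraries and 16.6, 21.4 and 18.6 CPM in the normoxia-NaCl libraries. No 2 groups overlapped: every hypoxia-lactate library lay below every normoxia-lactate library, those below every hypoxia-NaCl library, and those below every normoxia-NaCl library. The means were 3.40 ± 0.548 CPM in hypoxia-lactate, 10.6 ± 1.08 in hypoxia-NaCl, 6.68 ± 1.20 in normoxia-lactate and 18.9 ± 2.39 in normoxia-NaCl (SD, n = 3 each). Behind them stood 49 to 950 reads a library, and the groups did not overlap on plain library totals either. In the 4 groups of 3, 0.274% of the 14616 tested genes were free of overlap in any order, and 0.0274%, which is 4 genes, in this order: Cd33, Wdr41, Tbc1d22a and Mcrip1. Which cells held the transcript was not measured, and in a bulk sample fewer cells of a type and less RNA per cell cannot be told apart.

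**Figure D1:**
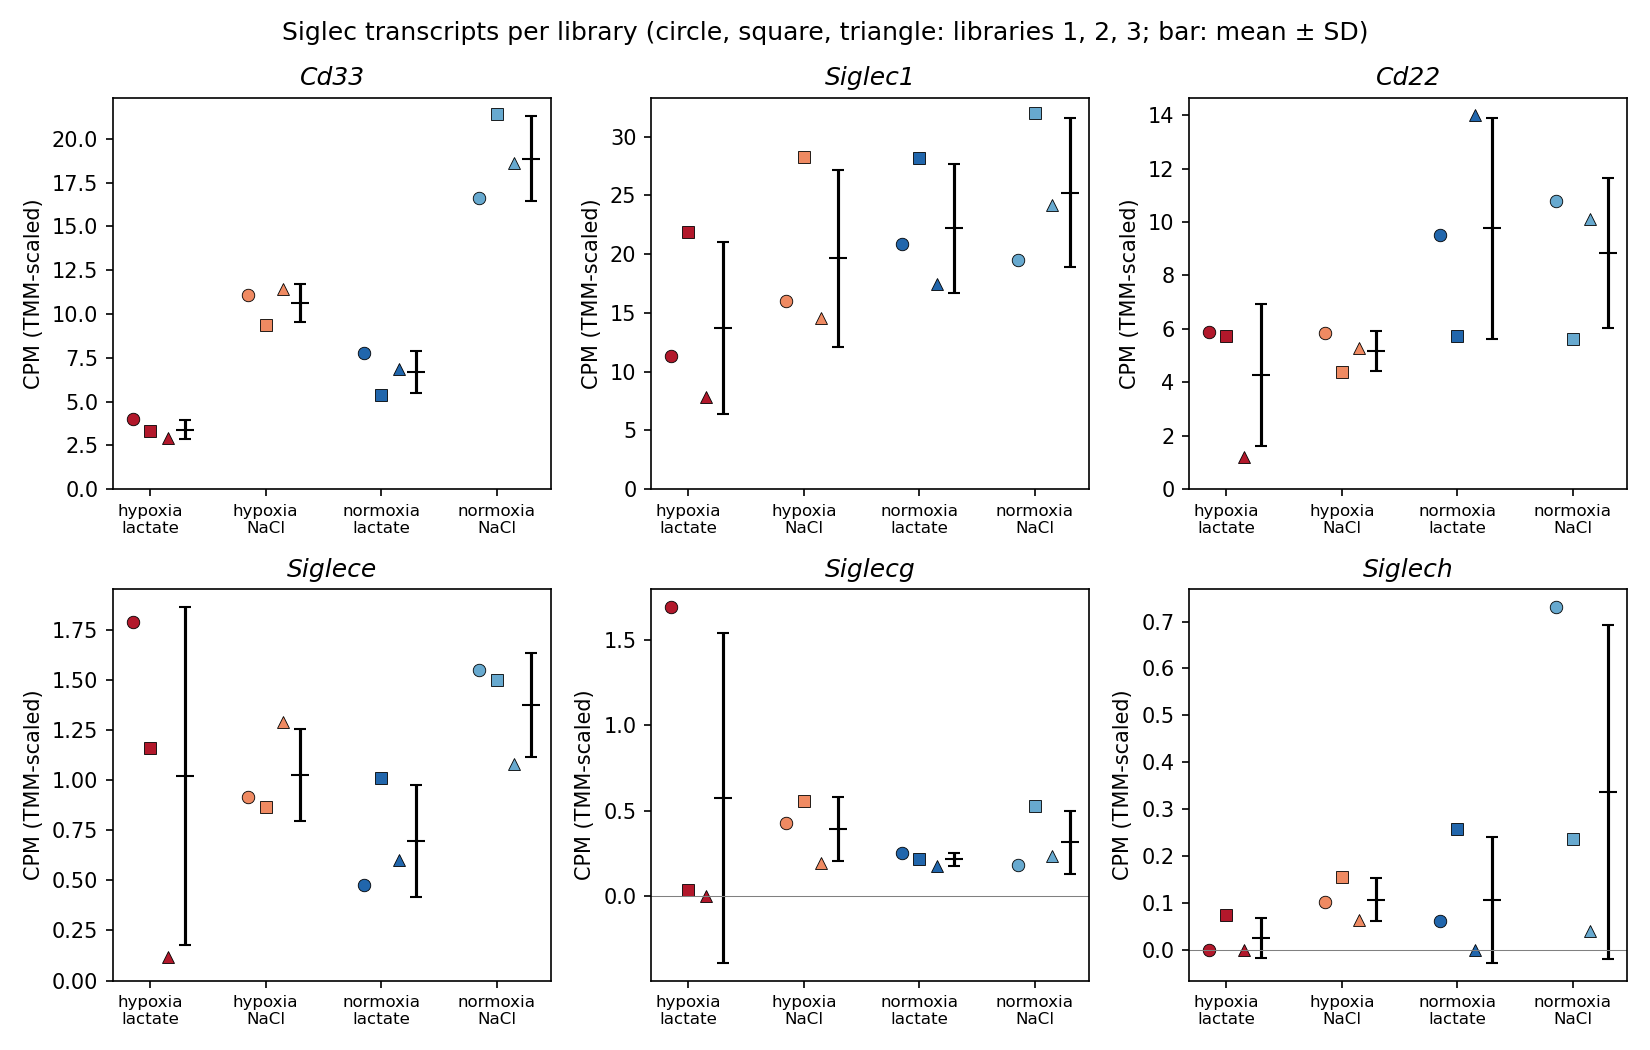
TMM-scaled CPM of the 6 Siglec genes (vertical axes, linear, each with its own range) in the 12 libraries, grouped along the horizontal axis as hypoxia-lactate, hypoxia-NaCl, normoxia-lactate and normoxia-NaCl. Circles, squares and triangles are libraries 1, 2 and 3, and the bar is the mean ± SD of 3; the groups of Cd33 lie apart, with 3.40 CPM on average in hypoxia-lactate and 18.9 CPM in normoxia-NaCl, while each of the other genes has groups that overlap.

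Each comparison was tested by edgeR's quasi-likelihood test in a fit over all 12 libraries, with p-values adjusted by Benjamini and Hochberg's method across 14616 genes and called under 0.05. Of the 6 genes 5 were tested, since Siglech had too few reads. For low oxygen and lactate together (hypoxia-lactate against normoxia-NaCl), 1 of the 5 passed, against 1.61% of all tested genes in either direction (1.17% upward and 0.438% downward). Their log2 fold changes were negative for 4 of the 5, with a median of -0.88 against -0.01 over all tested genes. That gene was Cd33, which fell by 2.47 ± 0.29 on the log2 scale (± SE, here and below; 95% interval -3.09 to -1.84), 5.53-fold lower in hypoxia-lactate, with an adjusted p of 0.00189 by edgeR. It was number 10 of all genes by p-value and, by size of change, number 15 of the 64 genes that fell. Without hypoxia-lactate 3 the change was -2.37 ± 0.24 with an adjusted p of 0.000184. Over 19 alternative settings the log2 fold change lay between -2.60 and -2.36 and the adjusted p between 8.66e-22 and 0.126, and the call was lost only in the edgeR fit restricted to the groups compared (adjusted p = 0.126). The groups did not overlap, as was so for 11.2% of tested genes downward.

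Lactate was compared with NaCl at each oxygen level. In normoxia, Cd33 was 2.82-fold lower with lactate, a log2 fold change of -1.50 ± 0.28 (95% interval -2.10 to -0.90), which did not pass adjustment over the table (adjusted p = 0.477 by edgeR). In hypoxia, it was 3.11-fold lower with lactate, a log2 fold change of -1.64 ± 0.28 (-2.25 to -1.03), with an adjusted p of 0.325 by edgeR. Cd33 was number 4 of all genes by p-value in normoxia and number 3 in hypoxia, and its groups did not overlap in either comparison, as was so downward for 6.16% of tested genes in normoxia and 9.3% in hypoxia. Of the 5 tested Siglec genes 0 passed in either comparison, against 0% of all genes: edgeR called 0 genes in both, with 139 lower and 88 higher at an unadjusted p under 0.05 in normoxia and 596 lower and 1068 higher in hypoxia, while DESeq2 called 10 genes in normoxia (0.0684%) and 112 in hypoxia (0.766%). The median of the 5 was -0.56 in normoxia and -0.27 in hypoxia, against 0.01 and -0.03 over all tested genes. Cd33 was the only Siglec gene with an unadjusted p under 0.05 in either, and DESeq2 called it in both (adjusted p = 4.67e-08 and 1.27e-07).

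With edgeR, Cd33 passed in both lactate comparisons once hypoxia-lactate 3 was left out, while its fold changes moved by less than their SE. Without that library, it passed for lactate in normoxia at -1.49 ± 0.20 (adjusted p = 0.0142 by edgeR) and was the only gene of the 5 called there that fell, the others being Hspa1a, Hspa1b, Hspa1l and Ifitm6. In the fit of only the groups compared, which for normoxia holds no hypoxia-lactate library, its adjusted p by edgeR was 0.104 in normoxia and 0.829 in hypoxia. For lactate in hypoxia without hypoxia-lactate 3, it passed at -1.53 ± 0.23 (adjusted p = 0.0465 by edgeR) and was 1 of 3 genes that fell among the 6 called, with Rab3il1 and Mcrip1. Genes called without that library made up 0.0331% of those tested in normoxia and 0.0398% in hypoxia.

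Low oxygen was compared with normoxia in each medium. Without lactate (hypoxia-NaCl against normoxia-NaCl), Cd33 was 1.78-fold lower in hypoxia, a log2 fold change of -0.83 ± 0.27 (95% interval -1.42 to -0.24), with an adjusted p of 0.516 by edgeR. With lactate (hypoxia-lactate against normoxia-lactate), it was 1.96-fold lower in hypoxia, a log2 fold change of -0.97 ± 0.28 (-1.57 to -0.37), with an adjusted p of 0.228 by edgeR. Of the 5 tested Siglec genes 0 passed in either comparison by edgeR, against 0.281% of tested genes without lactate (0.267% upward, 0.0137% downward) and 0.226% with it (0.0274% downward). The median of the 5 was -0.42 without lactate and -0.69 with it, against 0.01 and -0.03 over all tested genes. At an unadjusted p under 0.05 stood Cd33 without lactate, among 467 lower and 481 higher genes, and Cd33 and Cd22 with it, among 777 lower and 1360 higher genes. DESeq2 called Cd33 in both (adjusted p = 0.0149 and 0.00732, where it called 1.05% and 2.99% of tested genes). Leaving out hypoxia-lactate 3 brought Cd33 past the threshold without lactate (-0.84 ± 0.19, adjusted p = 0.0487 by edgeR, where 1.79% of tested genes were called) but not with it (-0.88 ± 0.23, adjusted p = 0.109, where 0.862% were called). The groups of Cd33 did not overlap in either comparison, as was so downward for 12% and 11.3% of tested genes.

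Whether lactate changed Cd33 more in hypoxia than in normoxia was tested as an interaction. The difference between the log2 fold changes was -0.14 ± 0.38 (95% interval -0.97 to 0.69; adjusted p = 0.946 by edgeR), and -0.04 ± 0.29 without hypoxia-lactate 3. Neither a stronger nor a weaker effect of lactate under low oxygen was detectable, and the interval still allows a difference of nearly 1 on the log2 scale downward. None of the 5 tested Siglec genes passed for the interaction, against 0% of all genes by edgeR, of which 252 were lower and 245 higher at an unadjusted p under 0.05 (none of them a Siglec gene) and 1 (0.00684%) was called by DESeq2.

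Other settings that changed which Siglec genes passed also changed how many genes passed in all. Without hypoxia-lactate 3 and normoxia-NaCl 1, Cd33 passed for low oxygen without lactate (where 1.23% of tested genes were called), lactate in normoxia (0.0197%), lactate in hypoxia (0.0722%) and both together (5.98%), but not for low oxygen with lactate (2.49%). With library numbers as blocks and hypoxia-lactate 3 left out, it passed in the same 4 comparisons, where 5.08%, 0.285%, 0.106% and 14% of tested genes were called, and not for low oxygen with lactate (1.73%). Siglec1 passed in that setting too, for both together (adjusted p = 0.0227 by edgeR). For both together, 6.86% of tested genes were called without hypoxia-lactate 3 and 9.92% by DESeq2.

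**Figure D2:**
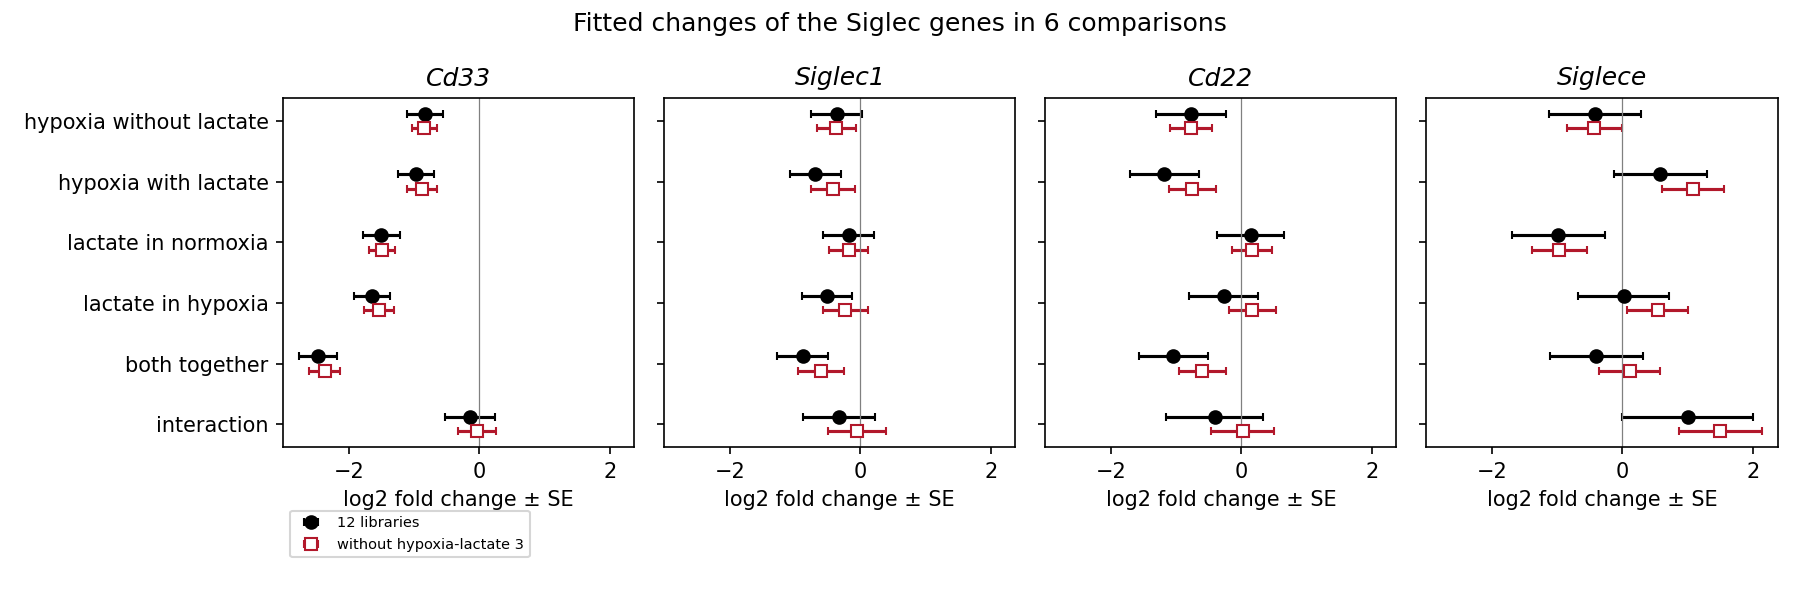
Log2 fold changes ± SE (horizontal axes) of Cd33, Siglec1, Cd22 and Siglece in the 6 comparisons (rows), from the fit over 12 libraries (filled circles) and from the fit without hypoxia-lactate 3 (open squares). Cd33 is below 0 in the 5 comparisons between groups, reaching -2.47 for low oxygen and lactate together, and near 0 for the interaction.

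Among 9200 tested genes with at least 5 CPM on average, the 3 whose log2 CPM followed that of Cd33 most closely over the 12 libraries were Apobec3 (Pearson r = 0.955), Mcrip1 (0.928) and Tgm2 (0.907). Without hypoxia-lactate 3 the values were 0.943, 0.916 and 0.897. Apobec3 was then again the closest, while Mcrip1 was number 4 and Tgm2 number 14. These correlations describe libraries that share the same 4 treatments. Apobec3 encodes a cytidine deaminase that restricts retroviruses. Its level was 21.9 ± 1.80 CPM in hypoxia-lactate, 30.1 ± 1.76 in hypoxia-NaCl, 30.0 ± 1.55 in normoxia-lactate and 36.5 ± 1.97 in normoxia-NaCl (SD, n = 3 each), so that the groups with low oxygen alone and lactate alone overlapped.

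Mcrip1, which encodes a protein that interacts with a transcriptional corepressor, had 19.5 ± 3.18 CPM in hypoxia-lactate, 41.8 ± 2.54 in hypoxia-NaCl, 36.5 ± 1.75 in normoxia-lactate and 53.4 ± 5.24 in normoxia-NaCl (SD, n = 3 each). Tgm2, the crosslinking enzyme transglutaminase 2 and a marker of alternatively activated macrophages, had 57.9 ± 5.66 CPM in hypoxia-lactate, 95.5 ± 11.6 in hypoxia-NaCl, 91.9 ± 13.0 in normoxia-lactate and 165 ± 27.9 in normoxia-NaCl. For low oxygen and lactate together, Mcrip1 fell by 1.46 ± 0.19 on the log2 scale and Tgm2 by 1.51 ± 0.19 (adjusted p = 0.00275 and 0.00206 by edgeR). Apobec3 was at -0.74 ± 0.18 with an adjusted p of 0.0635, and at -0.69 ± 0.14 with 0.0151 without hypoxia-lactate 3. The fold change of Cd33 was larger than that of each of the 3, and the difference was not tested.

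**Figure D3:**
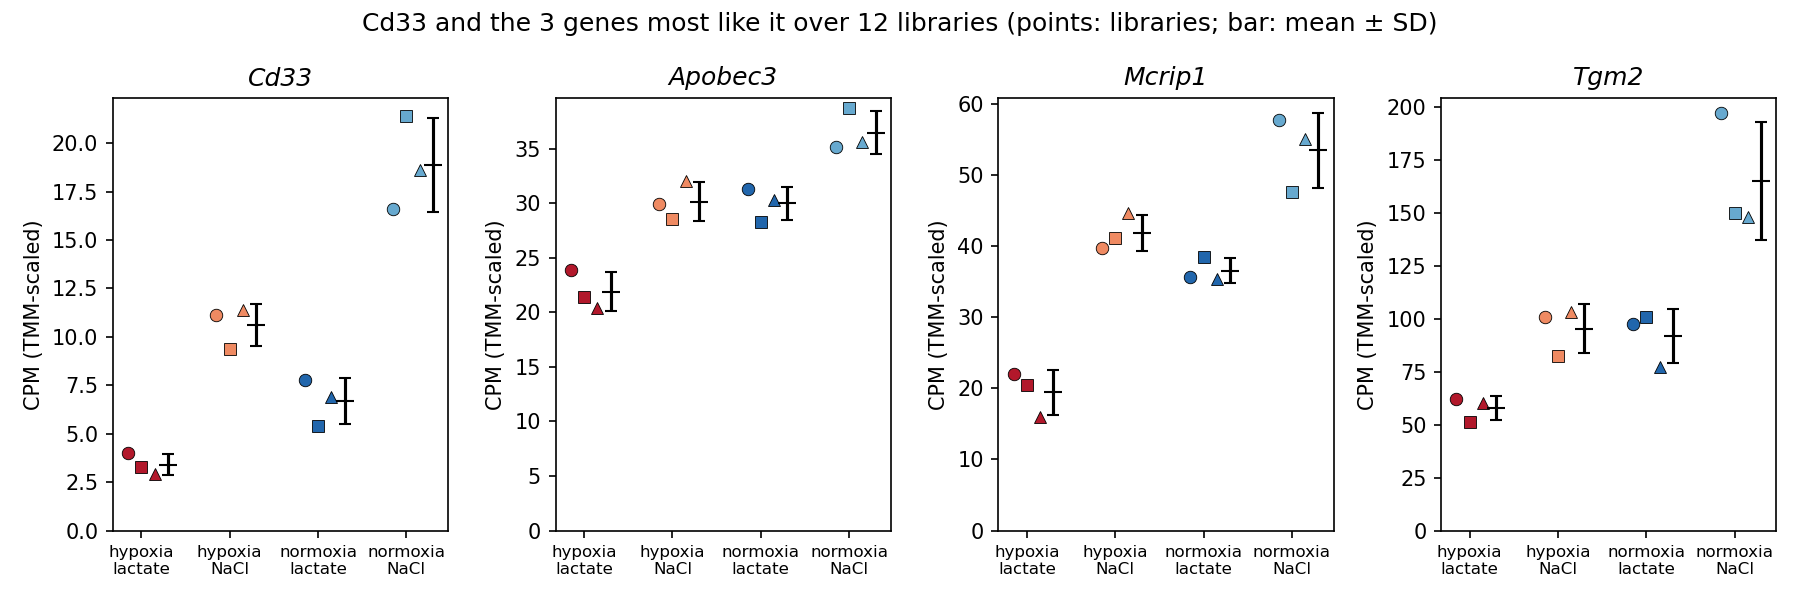
TMM-scaled CPM (vertical axes, linear) of Cd33 and of the 3 genes with the highest correlation with it, in the 12 libraries by group, with the mean ± SD of 3 libraries as a bar. All 4 genes have their lowest libraries in hypoxia-lactate and their highest in normoxia-NaCl, while hypoxia-NaCl and normoxia-lactate overlap for Apobec3 and Tgm2.

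Siglec1 was the most abundant of the 6 genes by reads, and its groups overlapped in each of the comparisons. It had 11.3, 21.9 and 7.89 CPM in the hypoxia-lactate libraries, 16.0, 28.3 and 14.6 CPM in the hypoxia-NaCl libraries, 20.9, 28.2 and 17.5 CPM in the normoxia-lactate libraries and 19.5, 32.0 and 24.2 CPM in the normoxia-NaCl libraries. The library numbered 2 was the highest in all 4 groups, as was so for 4.09% of tested genes. For low oxygen and lactate together the log2 fold change was -0.88 ± 0.39 (95% interval -1.73 to -0.03; adjusted p = 0.227 by edgeR), and -0.60 ± 0.35 without hypoxia-lactate 3 (adjusted p = 0.286). In the other 4 comparisons between groups it lay between -0.69 and -0.18, with adjusted p-values of 0.418 to 1 by edgeR, and none passed.

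In Siglecf, the library numbered 2 stood at the other end. It had 60.1, 24.8 and 93.8 CPM in the hypoxia-lactate libraries, 44.0, 23.2 and 64.5 CPM in the hypoxia-NaCl libraries, 40.3, 23.4 and 67.5 CPM in the normoxia-lactate libraries and 28.8, 16.5 and 34.8 CPM in the normoxia-NaCl libraries. In all 4 groups number 2 was its lowest library, as was so for 3.62% of tested genes, and number 3 its highest. Its log2 fold change for low oxygen and lactate together was 1.15 ± 0.52 (adjusted p = 0.227 by edgeR), and 0.67 ± 0.49 without hypoxia-lactate 3 (adjusted p = 0.407). With library numbers as blocks it was 1.03 ± 0.20 (adjusted p = 0.03 by edgeR). With the blocks and hypoxia-lactate 3 left out, the adjusted p was 0.00523 by edgeR, where 14% of tested genes were called. Of the 7 eosinophil markers, Il5ra had 0 reads in all 12 libraries, Epx and Ear6 at most 2, Ear1 at most 3 and Prg2 at most 11. Ccr3 reached 63 reads and Ear2 44 reads a library (2.03 and 1.09 CPM). The 7 markers summed to 0 to 2.44 CPM. This sum was 0 to 2.37 in hypoxia-lactate, 1.51 to 2.44 in hypoxia-NaCl, 0.416 to 1.42 in normoxia-lactate and 0.228 to 1.66 in normoxia-NaCl.

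**Figure D4:**
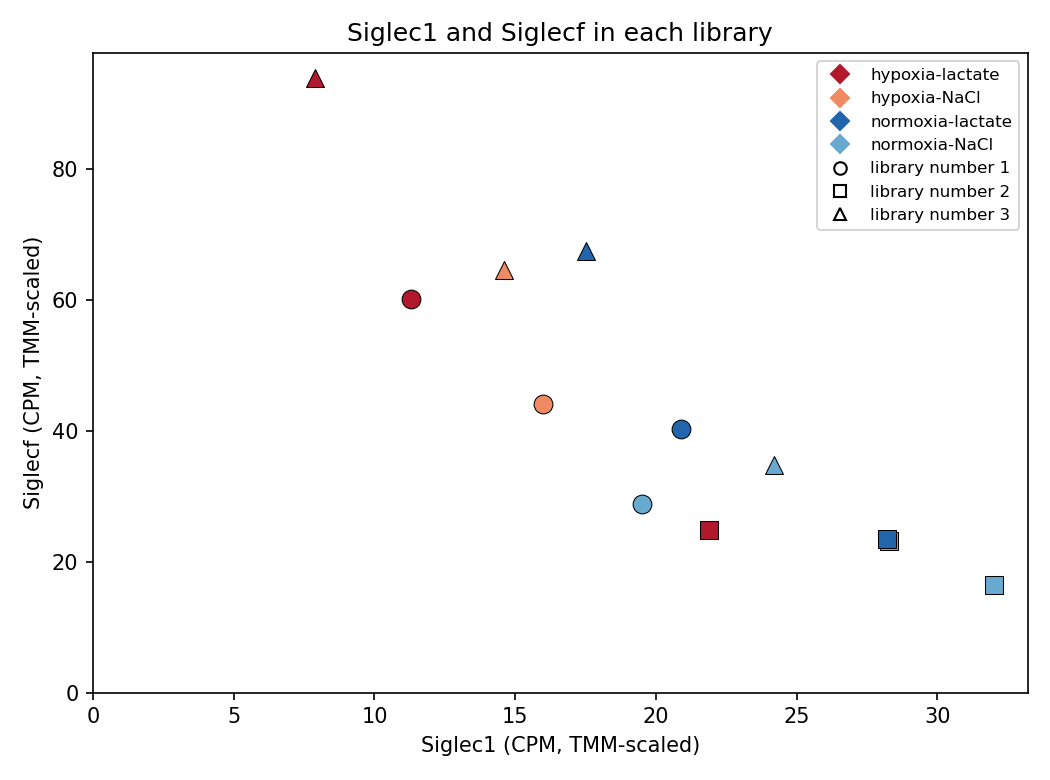
TMM-scaled CPM of Siglecf (vertical axis, linear) against that of Siglec1 (horizontal axis, linear) in the 12 libraries; colour gives the group and shape the library number. The squares, libraries numbered 2, are in each group the highest for Siglec1 and the lowest for Siglecf, with 21.9 to 32.0 CPM of Siglec1 and 16.5 to 24.8 CPM of Siglecf.

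Because Siglec1 is induced by interferon, a list of 16 other interferon-induced genes was read beside it. Summed over the list, the level was 127 to 146 CPM in hypoxia-lactate, 180 to 184 in hypoxia-NaCl, 190 to 219 in normoxia-lactate and 214 to 256 in normoxia-NaCl. Of the 15 tested, 14 had a negative log2 fold change for low oxygen and lactate together, with a median of -0.90 against -0.01 over all tested genes. Only Zbp1, a sensor of nucleic acids, passed and fell, by 2.13 ± 0.48 on the log2 scale (adjusted p = 0.0488 by edgeR); this call was kept in 6 of 19 alternatives, over which the adjusted p ranged from 0.000102 to 0.501. Without hypoxia-lactate 3, 4 of the 15 fell (Irf7, Oasl2, Bst2 and Zbp1) and the median was -0.98; Bst2 then also fell with low oxygen without and with lactate (adjusted p = 0.0167 and 0.019 by edgeR). Whether interferon signalling had a part in the level of Siglec1 was not tested.

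Cd22 had 5.88, 5.74 and 1.19 CPM in the hypoxia-lactate libraries, 5.85, 4.38 and 5.27 CPM in the hypoxia-NaCl libraries, 9.53, 5.75 and 14.0 CPM in the normoxia-lactate libraries and 10.8, 5.61 and 10.1 CPM in the normoxia-NaCl libraries. The hypoxic and normoxic groups met at about 5 to 6 CPM, and the lowest value, in hypoxia-lactate 3, rested on 20 reads. For low oxygen with lactate the log2 fold change was -1.18 ± 0.53 (95% interval -2.34 to -0.03; adjusted p = 0.336 by edgeR), and -0.75 ± 0.36 without hypoxia-lactate 3 (adjusted p = 0.375). For low oxygen without lactate it was -0.77 ± 0.53 (adjusted p = 0.932), and for lactate it was 0.14 ± 0.52 in normoxia and -0.27 ± 0.53 in hypoxia. The value in hypoxia was 0.17 ± 0.36 without hypoxia-lactate 3. Cd22 is overlapped on the opposite strand by Gm29439, and since the strand setting of the counting is not given in the sources used here, reads of the pair cannot be told apart.

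Defining genes of B cells were at or near 0. Of the 10 B cell markers Ms4a1, Blk and Cr2 had 0 reads in all 12 libraries. Their sum was 1.79 to 2.55 CPM in hypoxia-lactate, 1.64 to 3.69 in hypoxia-NaCl, 1.36 to 1.85 in normoxia-lactate and 1.49 to 4.20 in normoxia-NaCl. Of that sum 0.711 to 2.83 CPM came from Cd79b, a subunit of the B cell receptor. Of the 3 tested, 0 passed in any of the 6 comparisons by edgeR.

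Siglece was near 1 CPM. It had 1.79, 1.16 and 0.119 CPM in the hypoxia-lactate libraries, 0.917, 0.869 and 1.29 CPM in the hypoxia-NaCl libraries, 0.479, 1.01 and 0.600 CPM in the normoxia-lactate libraries and 1.55, 1.50 and 1.08 CPM in the normoxia-NaCl libraries. All values rested on 57 or fewer reads, and that of hypoxia-lactate 3 on 2. With lactate in normoxia its 3 libraries lay below the 3 with NaCl, as was so for 6.16% of tested genes, at a log2 fold change of -0.98 ± 0.71 (95% interval -2.51 to 0.55; adjusted p = 1 by edgeR). In hypoxia the groups with lactate and with NaCl overlapped, at 0.02 ± 0.70, and the interaction of 1.00 ± 1.00 (-1.16 to 3.16) was not detectable.

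Markers of neutrophils, another cell that carries Siglece and Cd33, varied widely between libraries of each group. The 11 markers summed to 2.92 to 35.5 CPM in hypoxia-lactate, 3.65 to 31.2 in hypoxia-NaCl, 2.79 to 31.7 in normoxia-lactate and 2.80 to 52.9 in normoxia-NaCl. These ranges overlapped in all 4 groups. Ly6g, the gene that defines mouse neutrophils, had at most 3 reads a library. Other markers reached more, with up to 410 reads for Ltf, 437 for Ngp, 589 for S100a8 and 683 for S100a9. Mpo had 0 CPM in hypoxia-lactate and 1.31 ± 0.931 in normoxia-NaCl, while S100a8 had 13.9 ± 18.5 and 3.69 ± 3.80 CPM (SD). Of the 9 tested, 0 passed in any of the 6 comparisons by edgeR; their median log2 fold change for low oxygen and lactate together was -1.48, and that of the same 9 genes was -0.93 without hypoxia-lactate 3, against -0.01 over all tested genes in both fits. Their part in the levels of Cd33 and Siglece was not tested.

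Siglecg and Siglech were at the limit of detection. Siglecg had 49, 1 and 0 reads in the hypoxia-lactate libraries, 21, 18 and 6 in the hypoxia-NaCl libraries, 12, 11 and 8 in the normoxia-lactate libraries and 4, 20 and 12 in the normoxia-NaCl libraries, 162 reads in all. A single library, hypoxia-lactate 1, decided its direction: the log2 fold change for low oxygen and lactate together was 0.89 ± 1.16 with it and -3.65 ± 1.18 without it (adjusted p = 0.706 and 0.0918 by edgeR). Siglech had 0, 2 and 0 reads in the hypoxia-lactate libraries, 5, 5 and 2 in the hypoxia-NaCl libraries, 3, 13 and 0 in the normoxia-lactate libraries and 16, 9 and 2 in the normoxia-NaCl libraries. A count of 0 allows up to 3 reads, which in these libraries is 0.0587 to 0.178 CPM; such limits cover counting error only.

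Of the plasmacytoid dendritic cell markers read beside Siglech, Klk1 had 0 reads in all libraries, Ptcra at most 1, Ly6d at most 7 and Ccr9 at most 20. Spib had at most 23 and Cox6a2 at most 48, while Runx2 had 233 to 1099 reads a library (13.8 to 26.7 CPM). The 9 markers nevertheless summed to 111 to 178 CPM in hypoxia-lactate, 110 to 116 in hypoxia-NaCl, 85.7 to 92.0 in normoxia-lactate and 81.5 to 86.1 in normoxia-NaCl, mainly through Tcf4 (60.8 to 164 CPM), a transcription factor that is not particular to these cells. Of the 5 tested, Pacsin1 fell with low oxygen and lactate together (adjusted p = 0.00784 by edgeR) and with low oxygen in lactate medium (adjusted p = 0.0396), having 0 reads in the 3 hypoxia-lactate libraries, 7 to 15 in hypoxia-NaCl, 23 to 28 in normoxia-lactate and 23 to 52 in normoxia-NaCl. The second of these calls was kept in 6 of 19 alternatives. Without hypoxia-lactate 3, Tcf4 also rose with low oxygen without lactate, by 0.50 ± 0.11 on the log2 scale (adjusted p = 0.0439 by edgeR). The part of such cells in the Siglech reads was not tested.

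The 6 genes together gave 23.0 ± 10.2 CPM in hypoxia-lactate, 36.9 ± 5.85 in hypoxia-NaCl, 39.7 ± 0.982 in normoxia-lactate and 54.9 ± 5.93 in normoxia-NaCl (SD, n = 3 each), with Siglec1 the largest share in every group. Cd33 made up 16.8 ± 6.91% of the sum in hypoxia-lactate, 29.5 ± 7.01% in hypoxia-NaCl, 16.9 ± 3.39% in normoxia-lactate and 34.3 ± 0.642% in normoxia-NaCl. In normoxia its share was 13.2% to 19.9% with lactate and 33.6% to 34.9% with NaCl. In hypoxia it was 10.2% to 24.0% with lactate and 21.5% to 34.7% with NaCl, which overlap only through hypoxia-lactate 3 at 24.0%; the other 2 hypoxia-lactate libraries had 16.2% and 10.2%. These shares are of CPM and are not corrected for gene length.

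The proteins through which Siglecs signal were read from a list of 12 genes, all of them tested. With low oxygen and lactate together 0 rose and 1 fell, with 6 positive and 6 negative log2 fold changes and a median of -0.01, equal to that of all tested genes. The gene that fell was Tyrobp, which encodes DAP12, the adaptor with an activating motif that pairs with Siglech and many other receptors. It had 434, 430 and 352 CPM in the hypoxia-lactate libraries, 644, 649 and 624 CPM in the hypoxia-NaCl libraries, 703, 704 and 653 CPM in the normoxia-lactate libraries and 1090, 737 and 870 CPM in the normoxia-NaCl libraries. It fell by 1.15 ± 0.19 on the log2 scale (adjusted p = 0.00984 by edgeR), and by 1.05 without hypoxia-lactate 3 (adjusted p = 0.00566), and the call was kept in 18 of 19 alternatives. Ptpn6, which encodes SHP-1, was at -0.07 ± 0.19 and Ptpn11, which encodes SHP-2, at 0.07 ± 0.14, with levels of 278 to 421 CPM and 121 to 142 CPM over all libraries. In the other 5 comparisons 0 of the 12 passed by edgeR.

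The glycan side of the system was read from 3 lists. Of 6 genes that make and activate sialic acid 5 were tested, and 0 passed in any comparison by edgeR. Without hypoxia-lactate 3, Gne, the enzyme that begins sialic acid synthesis, fell with both treatments by 0.95 ± 0.21 on the log2 scale (adjusted p = 0.0213 by edgeR). In the fit of 12 libraries its log2 fold change had the other direction, a rise of 0.20 ± 0.49 (adjusted p = 0.85 by edgeR). Of 20 sialyltransferases, the enzymes that attach sialic acid to glycans, 11 were tested and 1 passed: St8sia4, a polysialyltransferase. It had 214, 224 and 168 CPM in the hypoxia-lactate libraries and 188, 196 and 179 CPM in the hypoxia-NaCl libraries. Levels were 110, 116 and 149 CPM in the normoxia-lactate libraries and 96.7, 98.7 and 86.2 CPM in the normoxia-NaCl libraries. It rose by 1.11 ± 0.18 on the log2 scale with low oxygen and lactate together (adjusted p = 0.0096 by edgeR, kept in 17 of 19 alternatives) and by 1.00 ± 0.18 with low oxygen alone (adjusted p = 0.0376, kept in 7 of 19). For low oxygen with lactate it was at 0.69 ± 0.18 (adjusted p = 0.181), and at 0.80 ± 0.16 without hypoxia-lactate 3 (adjusted p = 0.0337). Of 7 genes that remove or break down sialic acid 5 were tested, and 0 passed in any comparison by edgeR. Without hypoxia-lactate 3, Npl, which encodes a lyase that splits sialic acid, fell with both treatments by 1.92 ± 0.44 and with low oxygen in lactate medium by 2.09 ± 0.44 on the log2 scale (adjusted p = 0.0219 and 0.0455 by edgeR). In the fit of 12 libraries it was at -2.45 ± 0.76 and -2.60 ± 0.77 (adjusted p = 0.114 and 0.237).

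Other inhibitory receptors were read beside Cd33. Of the 14 on this list 13 had an identifier and were tested. With low oxygen and lactate together 1 rose and 0 fell, 10 of the log2 fold changes were positive, and the median was 0.31 against -0.01 over all tested genes. The gene that rose was Cd72, an ITIM receptor first known from B cells, with 1270, 1050 and 2020 CPM in the hypoxia-lactate libraries, against 446, 592 and 659 CPM in the normoxia-NaCl libraries. Its log2 fold change was 1.35 ± 0.25 (adjusted p = 0.0198 by edgeR), and 1.04 without hypoxia-lactate 3 (adjusted p = 0.00827), and it was called in 15 of 19 alternatives. Among the 10 macrophage markers, Cd14, a receptor for lipopolysaccharide, rose by 1.27 ± 0.24 and Mrc1, the mannose receptor, fell by 2.76 ± 0.46 with both treatments (adjusted p = 0.0214 and 0.012 by edgeR), while the other 8 did not pass. Without hypoxia-lactate 3, Cd14 was at 1.31 and Mrc1 at -2.38, and Mertk, a receptor for the uptake of dying cells, also fell, by 2.08 ± 0.32 (adjusted p = 0.00314), where the fit of 12 libraries gave -1.57 ± 0.39 (adjusted p = 0.0693). For low oxygen without lactate, Cd72, Cd14 and Mrc1 passed by edgeR only without that library (adjusted p = 0.0388, 0.0417 and 0.0304, at 0.81, 0.99 and -1.26).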

How the data were processed

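RNA of 12 libraries was measured. Per the labels' protocols, libraries of poly(A) RNA were built with an Ion Torrent RNA kit for sequencing on the Ion Proton. Raw read counts per Ensembl gene were deposited by the authors; BWA, HTSeq and mm9 are named, without versions, in the submitters' processing notes. Neither the annotation release nor the strand setting was found in them, which leaves overlapping and antisense genes uncertain. A further 5 counters that name no gene held 31.7% to 37.4% of reads and were left out. Symbols (32897 of 37620 identifiers), gene lengths and neighbours come from GENCODE vM21 and promoters from RefSeq, both of GRCm38; of the 131 listed names 1, Lilrb4a, had no identifier.

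Counts were tested with edgeR 4.0.16 (R 4.3.3; TMM, filterByExpr with a minimum count of 10, quasi-likelihood F test) in a fit of all 12 libraries with a mean per group, with Benjamini-Hochberg adjustment over all tested genes. A standard error is the size of the log2 fold change divided by the root of F, and 95% intervals use the degrees of freedom of the fit. The code was tested on simulated counts. Likeness is Pearson's r of log2 CPM (prior count 2), without p. No replicate pair agreed within sampling noise.

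Library numbers were checked for pairing by the correlation of same-numbered deviations from group means: it was 0.138 to 0.315 for low oxygen without lactate, past the limit of 0.1 in every pair, and its lowest value was -0.0695 to 0.0821 in the other comparisons. The numbers come from the labels, which do not say what they mark.

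The genes and the 13 lists, the 6 genes themselves among them, were chosen with earlier results of these data known. Named are all 6 genes, the 3 genes most like each member of at least 5 CPM (a few genes under these rules are not reported here), listed genes past the threshold and markers that define a cell type. Siglecf, the genes called for lactate without hypoxia-lactate 3 and the listed genes called only without it were named after their values were seen. Alternatives were RLE size factors, no filter, DESeq2 1.42.0, the library number as a block, only the groups compared, leaving out each library, dropping both hypoxia-lactate 3 and normoxia-NaCl 1, and the block without hypoxia-lactate 3.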

Additional observations from a re-analysis of the deposited data

How the results depend on the processing

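Over the 6 comparisons the tested Siglec genes gave 30 log2 fold changes and 563 values under alternatives (19 per comparison, 18 for the interaction). Of these, 522 kept direction and side of the threshold, 14 passed where the fit reported above did not, 1 lost its call and 26 changed direction. The cause was not tested.

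The count of Siglec genes called moved only through Cd33 and, in 1 setting, Siglec1. For low oxygen without lactate, lactate in normoxia and lactate in hypoxia it became 1 in place of 0 with DESeq2, without hypoxia-lactate 3 and normoxia-NaCl 1, and with library numbers as blocks without hypoxia-lactate 3; leaving out each library gave 0 to 1, the 1 always without hypoxia-lactate 3. For low oxygen with lactate it became 1 with DESeq2. For both together it was 1, with 0 in the fit of only the groups compared and 2 (Cd33, and Siglec1 with an adjusted p of 0.0227) with the block without hypoxia-lactate 3.

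Counts over all genes moved more. For low oxygen without lactate 41 genes became 153 with DESeq2, 188 without the 2 libraries, 767 with the block without hypoxia-lactate 3 and 7 to 270 leaving out each library, with changes of over 1.5 times on leaving out hypoxia-lactate 3, normoxia-lactate 1, any hypoxia-NaCl or any normoxia-NaCl library. For low oxygen with lactate 33 became 437, 380, 261 and 3 to 130 in the same settings, the moves coming from hypoxia-lactate 2 and 3, hypoxia-NaCl 1 and 2 and all normoxia-lactate libraries, and 3 with only the groups compared. For lactate in normoxia 0 became 10, 3, 43 and 0 to 5, and 1 with no filter. For lactate in hypoxia 0 became 112, 11, 16 and 0 to 6. For both together 235 became 1450, 912, 2116 and 67 to 1035, every library but hypoxia-lactate 1 and hypoxia-NaCl 3 moving it, and 6 with only the groups compared. For the interaction 0 became 1 with DESeq2.

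The changes of direction were in values near 0 or in low counts. Leaving out hypoxia-lactate 1 gave Siglecg -3.10 (low oxygen with lactate), -3.95 (lactate in hypoxia), -3.65 (both together) and -3.39 (interaction), and Siglece -0.07 (low oxygen with lactate) and -0.62 (lactate in hypoxia). Leaving out hypoxia-lactate 3, alone, with normoxia-NaCl 1 and with the block, gave Cd22 0.17, 0.17 and 0.35 for lactate in hypoxia and Siglece 0.11, 0.20 and 0.10 for both together, and gave Cd22 an interaction of 0.02 alone and 0.22 with the block. Siglece for lactate in hypoxia was -0.18 with the block, -0.04 without hypoxia-lactate 2, -0.05 without hypoxia-NaCl 1 and -0.07 without hypoxia-NaCl 2. Without normoxia-NaCl 2 the effect of lactate in normoxia was 0.02 for Siglec1, 0.02 for Siglecg and -0.10 for Cd22, and without normoxia-lactate 3 it was -0.20 for Cd22. Without hypoxia-NaCl 2 Siglecg was -0.03 for low oxygen and Siglec1 0.04 for the interaction. Over all libraries left out in turn, these results ranged from -0.03 to 0.88 for Siglecg (low oxygen without lactate), -0.07 to 1.08 for Siglece (low oxygen with lactate), -0.38 to 0.02 for Siglec1, -0.80 to 0.02 for Siglecg and -0.20 to 0.43 for Cd22 (lactate in normoxia), -0.62 to 0.54 for Siglece, -3.95 to 1.15 for Siglecg and -0.55 to 0.17 for Cd22 (lactate in hypoxia), -1.05 to 0.11 for Siglece (both together), and -0.83 to 0.04 for Siglec1, -3.39 to 1.71 for Siglecg and -0.69 to 0.02 for Cd22 (interaction). Without the 2 libraries the interaction was 0.04 for Cd33 and 0.09 for Siglec1.

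The library number as a replicate block, with all 12 libraries, changed no call of a Siglec gene: Cd33 had an adjusted p of 0.473 for low oxygen without lactate, the comparison whose numbers paired, and 0.00468 for both together, and Siglec1 one of 0.0785 for both together. Siglecf, outside the 6 genes, had 1.03 ± 0.20 and an adjusted p of 0.03 by edgeR for both together with the block. Over all tested genes the numbers did not pass the pairing limit there. In Siglecf itself, number 2 was the lowest library and number 3 the highest in all 4 groups. For low oxygen without lactate, where the numbers passed that limit, the block gave Siglecf 0.65 ± 0.20 (adjusted p = 0.378 by edgeR). With hypoxia-lactate 3 also left out, its adjusted p by edgeR was 0.0267 for low oxygen without lactate and 0.00523 for both together. In these 2 fits 5.08% and 14% of tested genes were called.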

Other observations

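Levels of the annotated protein-coding neighbours of Cd33 on chromosome 7 were read beside it. Of the 6 protein-coding genes on either side, 6 in all were tested (Etfb, Vsig10l, Zfp658, Zfp719, Siglece and Ctu1). By edgeR 0 of them passed for lactate in normoxia or in hypoxia. Their log2 fold changes were -0.55 for Etfb, -0.31 for Vsig10l, -1.09 for Zfp658, 0.10 for Zfp719, -0.98 for Siglece and -0.22 for Ctu1 in normoxia. In hypoxia they were 0.81 for Etfb, 0.45 for Vsig10l, -0.59 for Zfp658, 0.19 for Zfp719, 0.02 for Siglece and -0.43 for Ctu1, against -1.50 in normoxia and -1.64 in hypoxia for Cd33.

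Among the genes that followed Siglec1 most closely over the 12 libraries were Tonsl (Pearson r = 0.917) and Ints14 (0.913). Tonsl is a factor of replication-fork repair and Ints14 a subunit of the Integrator complex. Without hypoxia-lactate 3 the values were 0.91 and 0.861, at numbers 2 and 13. The genes closest to Cd22 over the 12 libraries were Fgl2 (0.96), D10Wsu102e (0.959) and Mettl27 (0.956). Without hypoxia-lactate 3 they had 0.898, 0.896 and 0.895, at numbers 6, 8 and 9. The 3 genes closest to Cd22 in that setting had -0.439, -0.347 and -0.0688 over the 12 libraries, so this likeness depended on hypoxia-lactate 3. Mag, known from myelinating glia, was also detected, with 18 to 166 reads a library, and its log2 fold change for low oxygen and lactate together was 0.03 ± 0.59 (adjusted p = 0.984 by edgeR) and -0.67 ± 0.52 without hypoxia-lactate 3.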
